A study of Homo sapiens with 2 samples.

Results

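The plasma carriers analysed here are 7 genes chosen by name: ALB, AFP, AFM, GC, TTR, RBP4 and AMBP. They are 7 of the 34269 genes that had a matched transcript in the table, and each gene's value is the summed TPM, a length-corrected share of the library, over its transcripts. The cells were HepG2, which derive from a human liver tumour, with a doxycycline (Dox)-inducible cassette for SAMD4B, a human relative of the fly RNA-binding protein Smaug. One group was cultured with 1 µg/ml Dox for 48 h and the other without Dox, both in the same medium with fetal bovine serum. Each group is 1 library, so no difference has a replicate check and no test was made. All cells carry the cassette, whether the line is a clone is not given in the sources used here, and effects of Dox and of SAMD4B cannot be told apart.

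Albumin, alpha-fetoprotein, afamin and the vitamin D-binding protein form 1 gene family, whose members lie on the long arm of human chromosome 4. Hepatocytes make them for export to the blood, where they carry fatty acids, bilirubin, vitamins and other poorly soluble molecules. AFP is the main plasma protein of the fetus, is shut off after birth and is made again by many liver cancers. TTR carries thyroxine and binds RBP4, the retinol carrier, while AMBP codes for a precursor that is cut into the haem-binding alpha-1-microglobulin and the protease inhibitor bikunin. In bulk RNA, fewer cells making a transcript and less of it per cell cannot be told apart.

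The induced gene checks the labels. SAMD4B was at 261 TPM with Dox and 47.5 TPM without Dox. These values do not separate the cassette from the cells' own gene. The protocol field names Dox for both samples, so the groups rest on the sample titles. All 10 hepatocyte markers that were looked up, ALB and TTR among them, had a mean TPM of at least 1, with a summed level of 12219 TPM with Dox and 13488 TPM without Dox. Of 20 markers of blood, endothelial, stellate and bile duct cells, PTPRC, VWF and KRT7 were listed at 0 in both libraries. The blood and macrophage list summed to 1755 TPM with Dox and 1595 TPM without Dox, nearly all of it LYZ, the endothelial list to 4.66 and 4.57 TPM, the fibroblast and stellate list to 7.56 and 4.97 TPM and the bile duct list to 192 and 207 TPM, each with Dox and then without Dox. The part of these markers in the results was not tested. Depths estimated from steps in the low values, on transcripts of at least 600 nt, were 23636337 fragments with Dox and 18139455 without Dox.

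All 5 members with a mean TPM of at least 1, called expressed here, were lower in the library with Dox, and none by as much as 1.5-fold. AFM and GC were at or near 0 in both libraries. On the scale log2((TPM with Dox + 1)/(TPM without Dox + 1)), the values of the 5 ran between -0.36 and -0.13, with a median of -0.29. Over all 7 the median was -0.23. In all, 11590 genes reached a mean of at least 1 TPM and were compared. Of them 47.0% were lower with Dox by any amount and 53.0% higher, 3.90% were at least 1.5-fold lower and 5.31% at least 1.5-fold higher, 0.966% at least 2-fold lower and 1.62% at least 2-fold higher. Their median was 0.02. Together the 7 genes held 1.41% of all TPM with Dox and 1.58% without Dox.

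**Figure D1:**
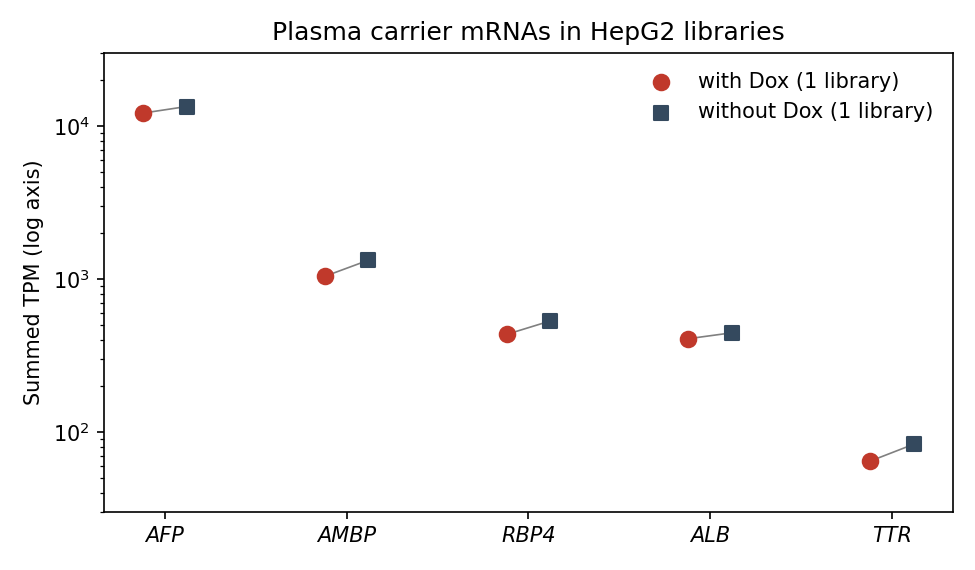
Summed TPM (log axis) of the 5 expressed carrier genes, with 1 point per library, red circles with Dox and dark squares without Dox. AFP lies near the top at 12140.4 and 13406 TPM, TTR at the bottom at 64.5 and 83.2 TPM, and every red circle lies below its square.

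The ALB gene (ENSG00000163631) lies at 73397114 to 73421412, AFP (ENSG00000081051) at 73431138 to 73456174 and AFM (ENSG00000079557) at 73481683 to 73504001, all on the plus strand of chromosome 4 (GRCh38, GENCODE release 29). GC (ENSG00000145321) lies apart from them at 71741693 to 71804041 on the minus strand of chromosome 4. TTR (ENSG00000118271) is at 31557010 to 31599021 on chromosome 18, RBP4 (ENSG00000138207) at 93591687 to 93601744 on chromosome 10 and AMBP (ENSG00000106927) at 114060127 to 114078472 on chromosome 9.

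AFP was the most abundant of the family. It was at 12140.4 TPM with Dox and 13406 TPM without Dox, which ranked it as number 4 and number 3 of all genes in those libraries. On the log2 scale AFP differed by -0.14. It held an estimated 459983 fragments with Dox and 400183 without Dox. Divided by each depth, these gave a fragment ratio of 0.88 (95% counting interval 0.878 to 0.886). Intervals of this kind cover counting error only, not variation between cultures.

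ALB, the main protein of adult plasma, was at 407 TPM with Dox and 445 TPM without Dox (-0.13 on the log2 scale). Its fragment ratio was 0.92, with an interval of 0.890 to 0.941. The AFP to ALB ratio in TPM was 29.8 with Dox and 30.1 without Dox. The excess of the fetal over the adult gene was nearly the same in both libraries.

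AFM, the vitamin E-binding afamin, was at 0.063 TPM with Dox and was listed at 0 without Dox, worth an estimated 2 fragments and 0 fragments. Both counts lie under a floor of 3 fragments, which is 0.092 TPM with Dox and 0.116 TPM without Dox for its transcript of 2059 nt, so no fold is given. GC, the vitamin D-binding protein, was at 0.18 TPM with Dox and 0.39 TPM without Dox, or about 4 and 7 fragments. For GC the interval of the fragment ratio ran between 0.094 and 1.73 around 0.44, so no difference was detectable at this depth. None of the GC values lay on its 4 coding transcripts, which were listed at 0 in both libraries.

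TTR, the thyroxine carrier, had the lowest level of the expressed members, 64.5 TPM with Dox and 83.2 TPM without Dox. Its log2 fold change of -0.36 was the lowest of the members, and its fragment ratio was 0.75 (interval 0.681 to 0.831). RBP4, the retinol carrier, was at 434 TPM with Dox and 532 TPM without Dox (-0.29, fragment ratio 0.80, interval 0.765 to 0.829). RBP4 and TTR travel in plasma as a complex, and the ratio of RBP4 to TTR mRNA was 6.73 with Dox and 6.39 without Dox.

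AMBP was at 1041 TPM with Dox and 1327 TPM without Dox, with a log2 fold change of -0.35 and a fragment ratio of 0.76 (interval 0.747 to 0.776). In both libraries the order of levels was AFP, AMBP, RBP4, ALB and TTR. By fragment ratio, the intervals of TTR, AMBP and RBP4 overlapped each other. Those of AFP and ALB lay above all 3, and AFP lay just below ALB. In TPM, however, AFP with Dox was at 90.6% of its level without Dox and ALB at 91.5%. The AFP percentage lies outside its fragment interval, as does that of AMBP, 78.4%. The intervals leave out errors of the depth estimate and of the split of fragments among transcripts, so they do not settle whether AFP and ALB differ. Of the 11590 genes compared, 10.7% had a smaller log2 fold change than TTR, 11.2% than AMBP, 14.5% than RBP4, 27.5% than AFP and 29.1% than ALB.

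**Figure D2:**
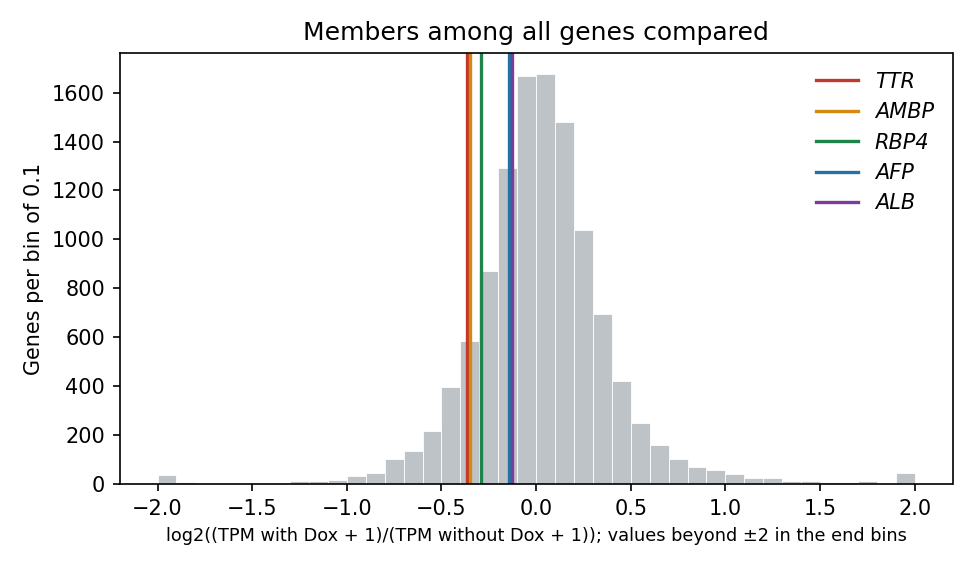
Number of genes (vertical axis) per bin of 0.1 in log2((TPM with Dox + 1)/(TPM without Dox + 1)) for the 11590 genes compared, with a coloured line for each expressed carrier. The 5 lines lie between -0.36 and -0.13, to the left of the overall median of 0.02 and inside the main body of the distribution.

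Abundant genes were a second background. Of the 222 genes whose mean reached 500 TPM, 66.2% were lower with Dox by any amount and 0.450% at least 1.5-fold lower, 33.8% were higher by any amount, 3.60% at least 1.5-fold higher, 0.00% at least 2-fold lower and 1.35% at least 2-fold higher. Their median log2 fold change was -0.06. AFP and AMBP are the 2 members of this class. Among its genes, 24.8% had a smaller log2 fold change than AFP and 2.70% a smaller one than AMBP.

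The promoter windows of the neighbouring ALB, AFP and AFM genes are shown because these related genes differ widely in level although they lie side by side. RefSeq windows (GRCh38.p14, 250 bases before to 50 bases after the start, plus strand) were found for 5 of the 7 members. Capitals mark the letters CCAAT, the letters TATAAA and paired sites, the last being GTTAAT and ATTAAC in a row with any 1 base between them and up to 2 mismatches, all searched on both strands. The ALB window is chr4:73404037-73404336, the AFP window chr4:73435971-73436270 and the AFM window chr4:73481495-73481794.
ALB: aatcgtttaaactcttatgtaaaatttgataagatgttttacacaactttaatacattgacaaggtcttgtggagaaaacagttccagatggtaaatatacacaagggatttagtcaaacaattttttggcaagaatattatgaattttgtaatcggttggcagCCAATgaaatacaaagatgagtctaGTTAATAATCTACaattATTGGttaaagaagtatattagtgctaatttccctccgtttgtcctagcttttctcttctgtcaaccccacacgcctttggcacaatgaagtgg
AFP: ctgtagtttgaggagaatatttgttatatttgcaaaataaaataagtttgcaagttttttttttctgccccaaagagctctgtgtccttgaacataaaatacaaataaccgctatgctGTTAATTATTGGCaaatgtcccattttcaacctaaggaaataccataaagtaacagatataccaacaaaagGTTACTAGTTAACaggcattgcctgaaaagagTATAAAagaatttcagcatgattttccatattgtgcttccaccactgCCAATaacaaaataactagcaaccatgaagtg
AFM: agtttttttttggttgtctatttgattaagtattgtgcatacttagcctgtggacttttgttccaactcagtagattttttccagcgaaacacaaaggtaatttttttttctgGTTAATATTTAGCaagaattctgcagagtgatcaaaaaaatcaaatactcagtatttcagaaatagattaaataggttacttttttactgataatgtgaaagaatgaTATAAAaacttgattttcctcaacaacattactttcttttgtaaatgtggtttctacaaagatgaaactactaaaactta

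Paired sites were present in 1.31% of all 35116 windows, CCAAT in 34.6% and TATAAA in 11.5%. The ALB window held 1 paired site, at -61 to -49, and the AFP window held one at the same distance and another at -132 to -120, which overlaps a CCAAT on the other strand. The AFM window, whose gene was near 0, also held one, at -137 to -125. TATAAA was found at -29 to -24 in AFP and at -30 to -25 in AFM, and these letters are not in the ALB window. The GENCODE starts of ALB-201, AFP-202 and AFM-201 lie 48, 58 and 62 bases upstream of the RefSeq starts used here. A match describes the letters only.

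RBP4 is shown for its separate starts, since both of its main transcripts were measured. RBP4-204 starts 28 bases inside the upstream window (chr10:93601695-93601994, minus strand), and RBP4-201 starts 9 bases inside the downstream one (chr10:93601186-93601485, minus strand), counted from the RefSeq start of each.
RBP4 upstream: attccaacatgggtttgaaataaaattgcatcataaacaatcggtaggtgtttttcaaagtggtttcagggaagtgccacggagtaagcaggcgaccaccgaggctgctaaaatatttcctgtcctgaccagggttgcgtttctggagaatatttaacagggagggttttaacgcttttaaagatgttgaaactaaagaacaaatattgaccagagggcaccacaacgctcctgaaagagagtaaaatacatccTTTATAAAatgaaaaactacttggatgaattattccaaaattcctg
RBP4 downstream: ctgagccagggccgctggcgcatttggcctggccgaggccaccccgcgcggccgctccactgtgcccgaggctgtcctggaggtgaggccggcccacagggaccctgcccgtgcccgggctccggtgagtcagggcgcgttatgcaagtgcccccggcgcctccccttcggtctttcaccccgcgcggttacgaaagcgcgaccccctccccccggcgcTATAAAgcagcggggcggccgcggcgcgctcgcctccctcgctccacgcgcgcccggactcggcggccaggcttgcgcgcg

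The downstream RBP4 window has TATAAA at -31 to -26. The upstream one has it at 7 to 12 after its RefSeq start, overlapping the same box on the other strand. This lies before the start of RBP4-204, which is 28 bases after that RefSeq start. Another RefSeq start of RBP4 lies between these, and its window is not shown. RBP4-204 was at 309 TPM with Dox and 384 TPM without Dox (fragment ratio 0.78, interval 0.745 to 0.824). RBP4-201 was at 124 TPM with Dox and 145 TPM without Dox (0.83, interval 0.777 to 0.890). The RBP4 transcripts from both starts were lower with Dox, their intervals overlapped, and RBP4-204 held 71.2% of the gene with Dox and 72.2% without Dox.

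The AMBP window (chr9:114078251-114078550, minus strand) held 4 CCAAT letters, counted over both strands, and neither of the other motifs, and AMBP-201 starts 172 bases upstream of that RefSeq start. AMBP-201, the full coding transcript of 1434 nt, held 94.6% of the gene with Dox and 95.2% without Dox, at 985 and 1263 TPM. AMBP-204, annotated as a target of nonsense-mediated decay and without the last 2 exons, was at 49.96 TPM with Dox and 57.3 TPM without Dox (fragment ratio 0.85, interval 0.761 to 0.946). This interval overlaps that of AMBP-201, 0.744 to 0.773.

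The albumin gene was the member whose transcripts differed most in direction. Of 20 ALB transcripts, 11 had a value above 0 in either library, and 4 coding ones held nearly all of the gene. ALB-201 (ENST00000295897), the full transcript with 15 exons, was at 75.4 TPM with Dox and 63.3 TPM without Dox, a fragment ratio of 1.16 with an interval of 1.09 to 1.23. The other main ALB transcripts were lower with Dox.

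ALB-214 (ENST00000509063), which leaves out exon 14, was at 123 TPM with Dox and 129 TPM without Dox (fragment ratio 0.92, interval 0.880 to 0.969). ALB-219 (ENST00000621085) was at 104 TPM with Dox and 123 TPM without Dox (0.82, interval 0.773 to 0.873). ALB-216 (ENST00000511370), which lacks exons 1 to 4, was at 96.8 TPM with Dox and 121 TPM without Dox (0.78, interval 0.735 to 0.828). ALB-201 was thus the one main ALB transcript that was higher with Dox, and its share of ALB was 18.5% with Dox and 14.2% without Dox.

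Most of the ALB signal was thus assigned to shorter forms, so the joins that define the shorter forms are shown. Each line gives 15 bases on either side of the join in the transcript, as 30 bases, with the bases after the join in capitals (chromosome 4, plus strand, GENCODE release 29 sequence).
ALB-219: tgaaaaaatacttatATGAAACCACTCTAG
ALB-214: tgctttgccgaggagCCTACCATGAGAATA
AFP-201: tgctttgctgaagagGGGAAGAGAAGACAA

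In ALB-219 the join does not lie at exon ends. It links position 73409362 inside exon 5 to position 73415106 inside exon 9 and leaves out 639 nt, or 213 codons. In ALB-201 the sequences at both ends of the missing stretch share a run of 8 bases, so the join could be placed at any point along this run. In ALB-214 the join links the end of exon 13 to the start of exon 15 and leaves out 68 nt. AFP-201 has the matching join of its own exons 13 and 15, leaving out 55 nt. The table holds no counts of fragments across joins, and Salmon splits fragments shared by these transcripts, so the share of each form is an estimate whose error is not covered by the intervals.

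AFP-202 (ENST00000395792), the longest AFP transcript, held 79.3% of the gene with Dox and 80.1% without Dox, at 9631 and 10739 TPM. Its fragment ratio was 0.87 (interval 0.868 to 0.876). AFP-201, without exon 14, was at 2193 TPM with Dox and 2237 TPM without Dox (0.95, interval 0.943 to 0.965). The intron-retaining AFP-206 was at 300.2 TPM with Dox and 408 TPM without Dox (0.72, interval 0.675 to 0.759).

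Within AFP, the intron-retaining form thus had a lower fragment ratio than the coding forms, with no overlap of intervals. These intervals leave out the error of Salmon's split of shared fragments, so they do not settle whether the forms differ. AFP-204, another intron-retaining form, was at 13.9 TPM with Dox and 23.2 TPM without Dox (0.58, interval 0.452 to 0.752). Retained-intron transcripts made up 2.59% of AFP with Dox and 3.21% without Dox. In AMBP the intron-retaining AMBP-203 had a higher fragment ratio than the coding AMBP-201, 0.96 (interval 0.732 to 1.26) against 0.76, with overlapping intervals. TTR had no such spread, since TTR-201 held 98.8% of it with Dox and all of it without Dox.

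**Figure D3:**
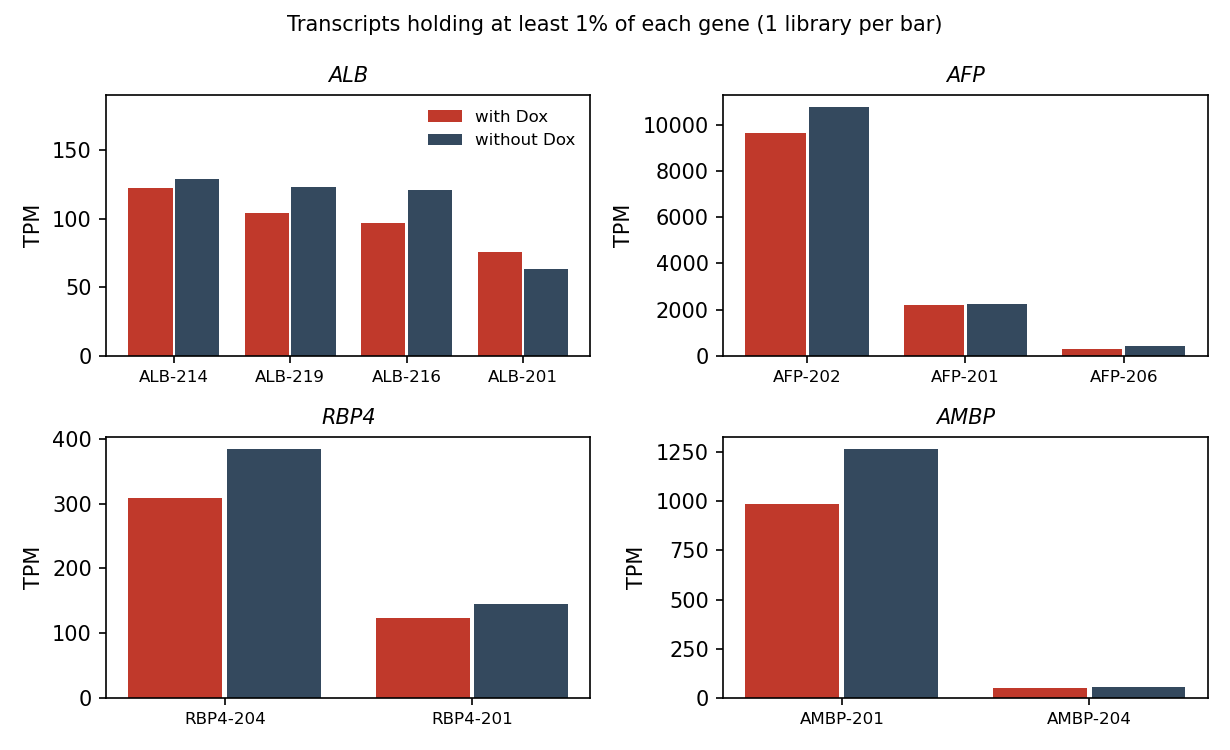
TPM of each transcript that held at least 1% of ALB, AFP, RBP4 or AMBP on average, with 1 red bar for the library with Dox and 1 dark bar for the library without Dox. ALB-201 is the one transcript whose red bar, 75.4 TPM, stands above its dark bar, 63.3 TPM.

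**Figure D4:**
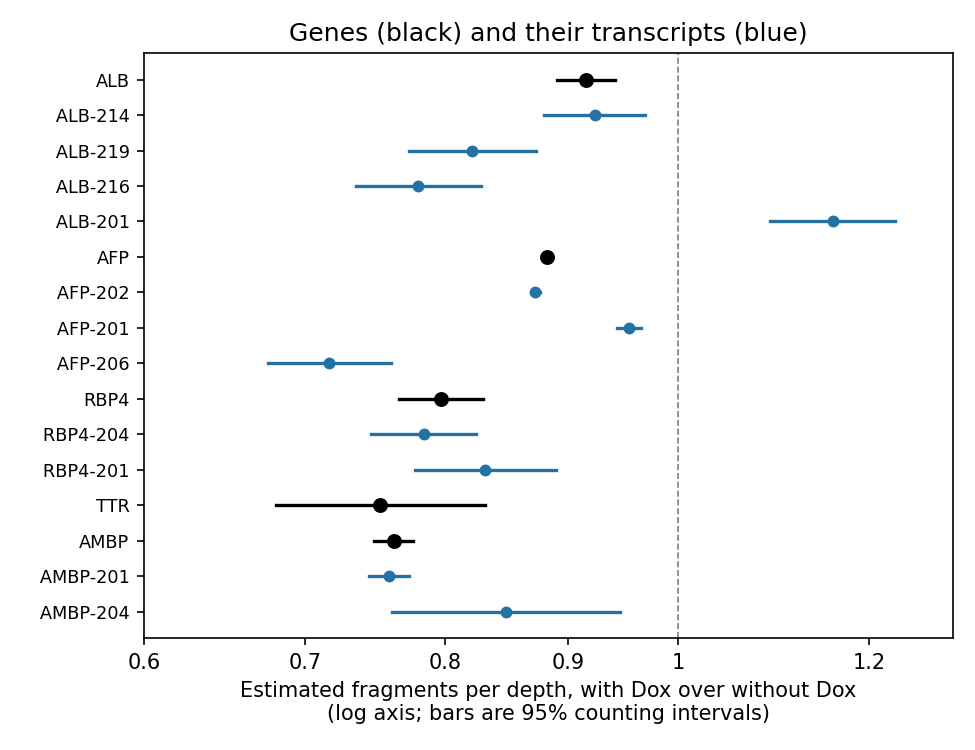
Ratio of estimated fragments per depth, with Dox over without Dox (log axis), for the 5 expressed genes in black, with 95% counting intervals as bars. Transcripts that held at least 1% of ALB, AFP, RBP4 or AMBP on average are in blue, and no TTR transcript is drawn. The intervals lie below 1 for all 5 genes and for every transcript shown but ALB-201, whose interval is 1.09 to 1.23.

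Fly Smaug binds hairpins with a loop of the letters CNGGN, so 1 transcript of each member was searched for it. These were ALB-201, AFP-202, AFM-201, GC-201, TTR-201, RBP4-204 and AMBP-201. ALB-201 was not the most abundant ALB transcript, and GC-201 was listed at 0 in both libraries. None of these 7 held such a loop closed by a stem of at least 5 Watson-Crick pairs. Of 11582 transcripts, each the most abundant of a gene compared, 8.70% did. Among transcripts of like length the share was lowest for the length of RBP4-204, at 2.85%, and highest for that of AFP-202, at 8.52%. The loop letters alone were found 7 times in ALB-201 and 41 times in AMBP-201, or 3.09 and 28.6 per 1000 nt. The transcripts between them held 5.83 (AFM), 9.26 (AFP), 11.2 (GC), 16.7 (RBP4) and 18.8 (TTR) per 1000 nt. The median over the 11582 transcripts was 18.6. CTGGC was not found in ALB-201 or AFM-201 and occurred 5 times in AMBP-201, or 3.49 per 1000 nt. In the transcripts of AFP, GC, TTR and RBP4 it lay between 0.40 and 1.19 per 1000 nt, and the median over the 11582 was 1.56.

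The region around the albumin genes was then described. Among the 22 other protein-coding genes that start within 1000 kb of the ALB, AFP and AFM cluster or of GC, 9 had a mean TPM of at least 1, of which 4 were lower and 5 higher with Dox, with a median log2 fold change of 0.02. The nearest of these, ANKRD17, was at 68.8 TPM with Dox and 62.4 TPM without Dox, and COX18 at 11.6 TPM with Dox and 13.3 TPM without Dox. AREG, an EGF receptor ligand gene that starts 1048 kb after the start of ALB, was at 5.11 TPM with Dox and 2.09 TPM without Dox, and its neighbour EREG at 1.46 and 0.87 TPM. On the log2 scale used, AREG was the one neighbour at least 1.5-fold higher, where 5.31% of all genes compared were.

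None of the other neighbours reached a 1.5-fold difference on the log2 scale used. GRSF1 was at 93.0 TPM with Dox and 91.8 without Dox, MOB1B at 15.2 and 12.005, DCK at 17.5 and 19.6, NPFFR2 at 3.98 and 4.54, and MTHFD2L at 10.1 and 10.8, each with Dox and then without Dox. Of the chemokine genes beyond AFM, named after their values were seen, CXCL8 was at 0.16 TPM with Dox and 0.10 TPM without Dox, and CXCL2 was at 0.20 TPM with Dox and listed at 0 without Dox. CXCL1, CXCL3, CXCL5, CXCL6, PF4, PF4V1 and PPBP were listed at 0 in both libraries.

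Further carriers and binding proteins of plasma were counted in the same way. Of 20 such genes, 18 were compared, and 13 of these were lower and 5 higher with Dox, with a median log2 fold change of -0.23. At least 1.5-fold lower were 3, and 1 was higher by as much. Lower by any amount were 47.0% of all genes compared and 66.2% of the abundant ones, and 3.90% of all were at least 1.5-fold lower, shares that also stand beside the lists below. The haemoglobin-binding HP was at 205 TPM with Dox and 386 TPM without Dox, and the haem-binding HPX at 4.14 and 6.91 TPM. FETUB, the remaining one at least 1.5-fold lower and outside the naming rule, was at 0.73 TPM with Dox and 1.67 TPM without Dox. SELENOP, the selenium carrier and the most abundant of the list by the mean of both libraries, was at 2915 TPM with Dox and 3091 TPM without Dox. The iron carrier TF, close behind by that mean, was at 2722 TPM with Dox and 3237 TPM without Dox. IGFBP1, which binds insulin-like growth factors, was the one at least 1.5-fold higher, at 73.1 TPM with Dox and 39.2 TPM without Dox, and the sex hormone carrier SHBG was at 2.55 and 1.62 TPM. For SHBG the interval of the fragment ratio was 0.558 to 2.15.

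The partners of AMBP were compared because bikunin is joined to heavy chains in plasma. ITIH2, a heavy chain gene, was at 1110.5 TPM with Dox and 1240.1 TPM without Dox (fragment ratio 0.83, interval 0.817 to 0.839), so AMBP to ITIH2 was 0.94 with Dox and 1.07 without Dox. ITIH1, ITIH3 and ITIH4 lie outside the naming rule. ITIH3 was at 8.47 TPM with Dox and 7.72 TPM without Dox, and ITIH1 at 0.18 and 0.16 TPM. ITIH4 was listed at 0 with Dox and at 1.04 TPM without Dox, none of it on transcripts of at least 600 nt. Neither ITIH1 nor ITIH4 reached the mean TPM needed to be compared. Of the 12 genes on this list, 6 were compared, 4 higher and 2 lower, with a median of 0.14. SPINT1, a Kunitz-type inhibitor, was at 3.39 TPM with Dox and 0.93 TPM without Dox and was the one member at least 1.5-fold higher, HMOX1, the haem-degrading enzyme, was at 82.6 and 70.6 TPM, and ITIH5 at 12.4 and 13.5 TPM.

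The ligands of the carriers have their own enzymes and receptors. Of 27 retinol and retinoic acid genes 13 were compared, 9 higher and 4 lower with Dox, with a median of 0.02. CRABP2, which binds retinoic acid in the cell, was at 2.47 TPM with Dox and 0.40 TPM without Dox (fragment ratio 6.14, interval 2.18 to 23.9). RBP2 was at 7.70 TPM with Dox and 12.6 TPM without Dox, the retinol dehydrogenase gene RDH5 at 1.53 and 3.05 TPM, and ALDH1A1, which makes retinoic acid and was the most abundant, at 228 and 225 TPM. RDH5 had 24 estimated fragments with Dox and 18 without Dox on its long transcripts, close to the depth ratio of 1.303, so no difference like that in TPM was seen there.

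Of 12 thyroid hormone genes 6 were compared, 5 higher and 1 lower, with a median of 0.15 and none past 1.5-fold. DIO1, a deiodinase, was at 10.7 TPM with Dox and 15.7 TPM without Dox, the hormone-responsive factor KLF9 at 16.2 and 12.3 TPM, the transporter SLC16A10 at 15.1 and 11.3 TPM, the receptor THRA at 8.69 and 8.44 TPM, and the receptor THRB at 15.8 and 13.2 TPM. For SLC16A10 the fragment ratio was 1.09, with an interval that begins at 0.946 and includes 1. Of 8 vitamin D genes 5 were compared, 2 higher and 3 lower, with a median of -0.37 that became 0.19 with no filter on low values. CYP24A1, which breaks down vitamin D, was at 92.9 TPM with Dox and 53.0 TPM without Dox, the receptor VDR at 1.91 and 3.57 TPM, CYP27A1 at 72.2 and 100.2 TPM and DHCR7 at 152 and 143 TPM.

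Receptors that recycle or take up albumin gave 2 higher and 4 lower of 6 compared, with a median of -0.06. FCGRT, the neonatal Fc receptor chain that rescues albumin from breakdown, was at 61.0 TPM with Dox and 69.2 TPM without Dox, and its partner B2M at 570.4 and 506 TPM. The uptake receptor CUBN was at 6.46 TPM with Dox and 8.66 TPM without Dox, and the albumin-binding matrix protein SPARC at 33.1 and 32.0 TPM. For CUBN the fragment ratio was 0.89 (interval 0.803 to 0.993), a smaller difference than the 74.6% in TPM.

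Transcription factors known to act on the ALB and AFP genes were all measured, and 11 of 24 were higher and 13 lower with Dox, 3 of them at least 1.5-fold lower and none as much higher, with a median of -0.03. Over all genes compared, 47.0% were lower, 3.90% at least 1.5-fold lower and 5.31% at least 1.5-fold higher. CEBPA, a hepatocyte factor, was at 21.1 TPM with Dox and 35.6 TPM without Dox (fragment ratio 0.58, interval 0.528 to 0.628), and TEF, a PAR-domain factor, at 2.41 and 4.70 TPM. The third at least 1.5-fold lower, DBP, another PAR-domain factor, lies outside the naming rule and was at 5.27 TPM with Dox and 8.69 TPM without Dox. The repressor NFIL3 was at 76.0 TPM with Dox and 57.3 TPM without Dox, NFIB at 1.70 and 1.06 TPM (fragment ratio 1.07, interval 0.835 to 1.37), and HLF, the most abundant, at 217 and 225 TPM.

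Repressors of AFP gave 4 higher and 3 lower of 7, with a median of 0.01. ZBTB20, at least 1.5-fold lower in TPM, was at 1.51 TPM with Dox and 3.32 TPM without Dox. Counting long transcripts alone (600 nt or more, 57.6% of its TPM), ZBTB20 had 743 estimated fragments with Dox and 426 without Dox. At a depth ratio of 1.303 that is higher with Dox, the opposite of the summed TPM. ZHX3 was at 8.44 and 6.16 TPM, although its fragment ratio was 0.97 (interval 0.869 to 1.09), RB1 at 38.3 and 31.0 TPM, and SMAD4 at 74.1 and 73.8 TPM. ZHX2, a repressor of AFP in mice that is named after its values were seen, was at 24.3 TPM with Dox and 23.0 TPM without Dox.

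Other genes of fetal liver and liver cancer were split in direction, with 7 higher and 7 lower of 14 compared and a median of 0.03. IGF2, a fetal growth factor, was at 38.8 TPM with Dox and 19.9 TPM without Dox (fragment ratio 1.89, interval 1.77 to 2.02). The surface proteoglycan GPC3, the most abundant, was at 1952 TPM with Dox and 2027 TPM without Dox, EPCAM at 76.9 and 94.2 TPM, S100P at 203 and 238 TPM and TSPAN8 at 1.45 and 0.73 TPM (interval of the fragment ratio 0.564 to 3.19).

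The secretory route that all carriers use was measured for 39 of 40 genes. Of these 21 were higher and 18 lower with Dox, none by 1.5-fold, with a median of 0.02. KDELR1, which returns resident proteins to the endoplasmic reticulum, was at 233 TPM with Dox and 328 TPM without Dox, and the translocon gene SEC61A1 at 147 and 204 TPM. The coat gene SEC24B was at 25.5 TPM with Dox and 18.7 TPM without Dox, the translocon-associated SSR4 at 287 and 229 TPM, and P4HB, a protein disulfide isomerase and the most abundant, at 903 and 801 TPM.

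**Figure D5:**
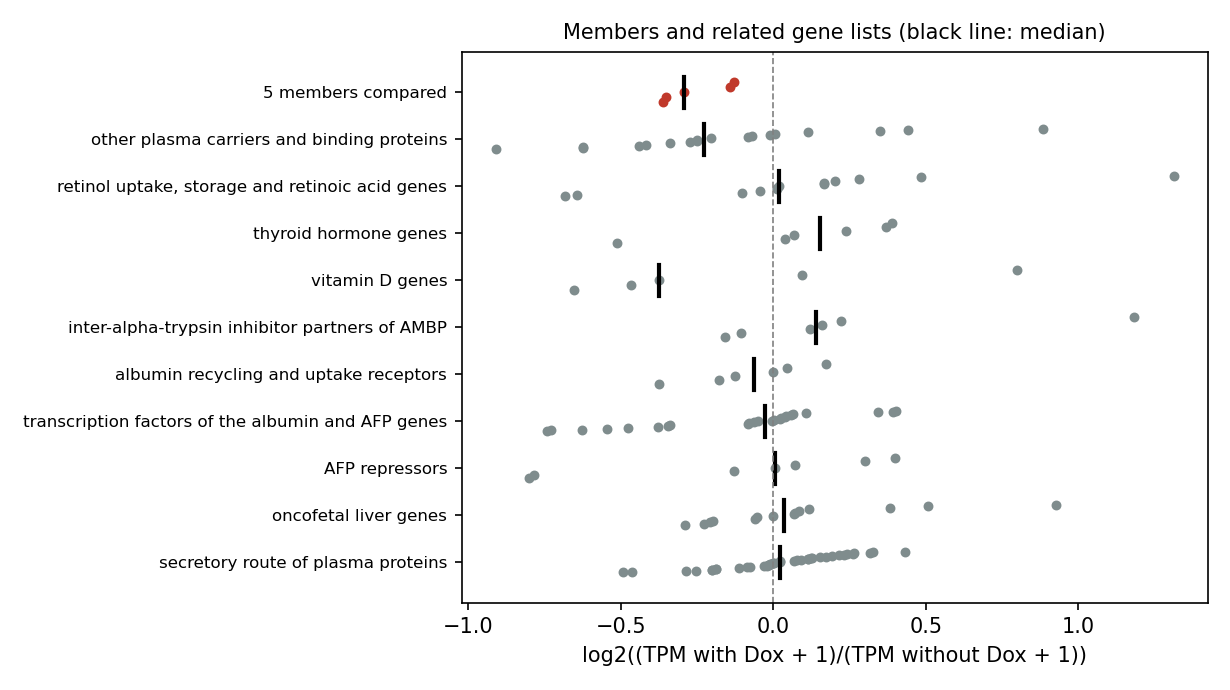
log2((TPM with Dox + 1)/(TPM without Dox + 1)) of each gene compared, with 1 point per gene and 1 row per list, red for the 5 expressed carriers, and a black line at each median. The carriers all lie below 0 with a median of -0.29, the other plasma carriers have a median of -0.23, and the widest lists spread to both sides of 0.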

How the data were processed

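Polyadenylated RNA was profiled in 2 libraries, 1 with Dox and 1 without Dox. The authors deposited TPM values for 184844 transcripts, and Trimmomatic, Salmon and GRCh38.p13 are named, per the submitters' processing notes, with versions, options and annotation release not given in the sources used here. Transcripts were matched by identifier to GENCODE release 29 (161838 matched, with 93.4% of the TPM with Dox and 93.3% without Dox) and summed per gene, so transcripts of a member that are not in that release are missed. Coordinates are GRCh38. Fold changes used a pseudocount of 1 TPM, which understates low genes, and genes reaching a mean of 1 TPM were compared.

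Depth was estimated from low TPM values of transcripts of at least 600 nt that are the only one listed for their gene. TPM times length less 300 nt fell within 0.1 of a whole multiple for 542 of 673 values with Dox and 523 of 679 without Dox, and the fit used these same values. Exact binomial (Clopper-Pearson) 95% intervals were computed with scipy 1.17.1 in Python 3.11.15 where at least 80% of a gene's TPM lay on such long transcripts, and rest on that estimate. PCR duplicates cannot be seen, so intervals and floors cover counting error only. The steps were tested on simulated data, with counts drawn per transcript and the same 300 nt taken off each length. Salmon's split of shared fragments was not part of that test. The members and the 10 lists were chosen with earlier results of these data known. Named genes are all members, SAMD4B, all measured neighbours and, of each list, the 2 highest, the 2 lowest and the most abundant, though a few of these are not reported here. Of the lists, APOM, RBP5, STRA6, H19 and SURF4 were not analysed here.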

Additional observations from a re-analysis of the deposited data

How the results depend on the processing

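No paired analysis was possible because each group has 1 library and the labels give no replicate numbers. For the 5 expressed members, the log2 fold change was below 0 in all 35 of 35 values from 7 alternatives each, with ranges of -0.15 to -0.07 for ALB, -0.18 to -0.13 for AFP, -0.41 to -0.34 for TTR, -0.33 to -0.27 for RBP4 and -0.39 to -0.33 for AMBP. All of these settings rework the same 2 libraries, so their shared sign is no replicate check. The setting with the most abundant transcript alone took ALB-214 for ALB, while ALB-201 alone had a log2 fold change of 0.25. AFM ranged between 0.02 and 1.23 and GC between -1.05 and 0 over the same settings. The median over all genes, 0.02 on the log2 scale, was -0.02 in estimated fragments, the largest shift of the settings tried, and stayed above 0 under the others. Counts of genes at least 2-fold higher and lower with Dox were 188 and 112, but 296 and 186 with a pseudocount of 0.1 TPM, 55 and 28 with 5 TPM, and 71 and 32 at a mean TPM of at least 5. Counts at least 1.5-fold higher and lower were 616 and 452, but 235 and 174 with a pseudocount of 5 TPM and 344 and 262 at a mean TPM of at least 5. They were 837 and 640 with a pseudocount of 0.1 TPM and 818 and 614 with no filter on low values. In estimated fragments they were 450 and 455, so there the higher genes did not outnumber the lower ones. The vitamin D list, of 5 compared genes, had a median of -0.37 but -0.25 with a pseudocount of 5 TPM, -0.18 on protein-coding transcripts only, -0.16 in estimated fragments, 0.19 with no filter on low values and -0.14 at a mean TPM of at least 5. A higher pseudocount shrinks low genes and a filter changes which genes are compared, while for the other settings the cause was not tested. The medians of the retinol, AFP repressor, secretory, receptor, transcription factor and oncofetal lists, all between -0.06 and 0.03, changed sign under at least 1 setting each. Depth limits AFM and GC, at 7 fragments or fewer.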
